A study of Homo sapiens with 18 samples.

Results

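MDK, ODC1, USP34, ACBD3, CFD, VGF and ALDH1A3 are 7 protein-coding genes that had been picked out because their RNA levels differed from Actin KO cells in the same direction when either wild-type or mutant actin was added back. They are 7 of 60683 annotated gene rows, found by symbol in both count tables of the study. They were chosen by their measured differences in ACTB-WT against Actin KO and in ACTB-mut against Actin KO, so these values are given as a description, and the choice of genes fixes their direction. MDK, ODC1, USP34, ACBD3 and CFD were higher in both add-backs, and VGF and ALDH1A3 were lower in both.

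Poly(A) RNA had been sequenced in 6 groups of 3 libraries from HCT-116, a cell line established from a human colorectal carcinoma. The ACTB table holds ACTB-WT (Actin KO cells stably expressing wild-type actin), ACTB-mut (Actin KO cells stably expressing actin with the H73A change) and Actin KO (the same knockout with an empty construct), so all 3 of its groups carry the knockout. The SETD3 table holds the knockout lines SETD3 KO1 and SETD3 KO2 and the control SETD3 CT, none of them labelled with an actin change. Whether a knockout line was 1 clone, and whether replicates were separate cultures, was not given in the sources used here, so p-values measure the spread between these libraries, which may be technical. The cell line label of SETD3 KO2 replicate 3 reads HCT-117, and the library was kept in its group.

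Beta-actin, the product of ACTB, is a cytoskeletal protein that also sits in chromatin remodelling complexes, and SETD3 is the enzyme that methylates the actin histidine that the H73A form lacks. The 7 genes have no pathway in common in textbook knowledge. MDK (midkine), CFD (complement factor D) and VGF are secreted proteins, a growth factor, a protease of the alternative complement pathway and a precursor of neuroendocrine peptides. ODC1 and ALDH1A3 are enzymes that make small regulatory molecules, polyamines and retinoic acid. USP34 and ACBD3 act inside the cell, USP34 as a ubiquitin protease that acts on axin in Wnt signalling and ACBD3 as a Golgi scaffold.

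Total counts ran from 5144386 to 11271910 per library in the ACTB table and from 3389586 to 11652967 in the SETD3 table. ACTB itself stood at 31.0, 29.2 and 23.2 CPM (counts per 1e6 counts of a library) in ACTB-WT and 47.1, 32.0 and 43.0 CPM in ACTB-mut, against 16.7, 24.9 and 14.9 CPM in Actin KO and 662 to 1456 CPM in the SETD3 table. Counted ACTB RNA in the add-back libraries was thus far under that of the SETD3 table, and the groups are named here by their labels. Whether the constructs carry the annotated untranslated regions was not given in the sources used here, and RNA of a construct without them may be counted only in part. SETD3 stood at 6.81, 6.34 and 17.1 CPM in SETD3 KO1 and 15.6, 22.3 and 27.7 CPM in SETD3 KO2, against 15.5, 14.0 and 36.0 CPM in SETD3 CT. The log2 difference from CT was -1.12 in KO1 (adjusted p = 0.879 by edgeR) and 0.007 in KO2. Both lines overlapped the control, so SETD3 RNA set neither apart from it, and the groups are the libraries labelled KO1, KO2 and CT. Of the 8 markers fixed for a colon line, 6 had at least 1 CPM in every group. LGR5 was at 0 throughout, and VIL1 was at 0 in SETD3 CT and SETD3 KO2.

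Bases upstream of the start sites are shown for the members whose RefSeq window (GRCh38.p14) began, at its far end, outside annotated exons. A reader may want to set these promoters beside the changes in RNA. Windows of 250 upstream bases were found for 6 of the 7 genes, 2 of them for ODC1, and MDK had none in the table used. Each window is shown from its far end up to its first base inside any GENCODE exon. That left none to show for USP34, ALDH1A3 and the second window of ODC1, which began in an exon. Of the 250 bases, 150 lay in exons for USP34, 142 for the second window of ODC1 and 250 for ALDH1A3. Capitals mark matches on either strand to the CRE (TGACGTCA), the E-box (CACGTG), the GC box (GGGCGG), the CCAAT box and the TATA box (TATAAA), each sequence running 5′ to 3′ on the strand of its gene.
VGF (chr7:101165594-101165819, minus strand): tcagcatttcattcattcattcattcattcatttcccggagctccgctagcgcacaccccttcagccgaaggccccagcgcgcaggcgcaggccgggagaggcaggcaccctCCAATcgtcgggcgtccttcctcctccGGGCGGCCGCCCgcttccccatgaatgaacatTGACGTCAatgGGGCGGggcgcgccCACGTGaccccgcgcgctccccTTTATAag
CFD (chr19:859414-859642, plus strand): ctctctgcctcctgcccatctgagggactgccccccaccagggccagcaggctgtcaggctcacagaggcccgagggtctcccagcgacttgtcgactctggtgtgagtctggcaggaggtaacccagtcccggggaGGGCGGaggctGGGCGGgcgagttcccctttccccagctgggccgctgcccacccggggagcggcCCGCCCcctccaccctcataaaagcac
ACBD3 (chr1:226186742-226186991, minus strand): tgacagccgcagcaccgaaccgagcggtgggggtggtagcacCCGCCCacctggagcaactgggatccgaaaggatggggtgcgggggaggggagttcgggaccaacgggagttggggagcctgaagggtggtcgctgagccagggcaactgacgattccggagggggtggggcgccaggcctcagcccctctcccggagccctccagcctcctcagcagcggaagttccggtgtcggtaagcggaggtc
ODC1 (chr2:10448505-10448577, minus strand): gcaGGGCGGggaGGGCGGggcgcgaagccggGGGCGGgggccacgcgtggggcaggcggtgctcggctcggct
The VGF stretch held all 5 of these motifs. Upstream of the start it had a CCAAT box at 138 bases, 3 GC boxes at 111, 105 and 68 and a CRE at 79. An E-box lay at 54 and a TATA match at 32. The GC boxes at 111 and 105 lie end to end on opposite strands. These distances run to the RefSeq start, and the last 24 bases before it fall in a GENCODE exon and are not shown. Among 35116 windows of the same length, a CRE was found in 1.65%, an E-box in 6.34%, a TATA match in 10.7%, a CCAAT box in 32% and a GC box in 42.6%. GC boxes were in every window of the 6 genes. They were the only one of these 5 motifs in those of CFD, ACBD3 and USP34 and in the first window of ODC1. Neither the AP-1 motif (TGANTCA, in 6.57% of all windows) nor the CArG box (in 1.16%) matched any window of these genes, and the TEAD motif (GGAATG, in 11.9%) matched only that of USP34. Such matches are letters in a window and were not tested as sites of binding.

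In the fit over all 13882 tested genes of the ACTB table, all 7 genes passed the filter on low counts. They were chosen on ACTB-WT and ACTB-mut against Actin KO, so their calls in these comparisons describe that choice and do not test it. In ACTB-WT, 7 of 7 were called against Actin KO at an adjusted p below 0.05, beside 1.12% of all genes. Of these, 5 were called higher, beside 0.439% of all genes, and 2 lower, beside 0.677%. In ACTB-mut, 6 of 7 were called, beside 0.922% of all genes, with 4 called higher, beside 0.324%, and 2 called lower, beside 0.598%. The exception was ACBD3, whose adjusted p of 0.0517 placed it just outside. When any 1 library was left out, 5 to 7 were called in ACTB-WT and 3 to 5 in ACTB-mut. In ACTB-WT, USP34 lost its call in 3 of 6 such fits (those lacking ACTB-WT replicate 3, Actin KO replicate 1 and Actin KO replicate 2) and ACBD3 in 5 of 6 (all but that without Actin KO replicate 3). In ACTB-mut, ODC1 lost its call in 3 of 6 (those lacking ACTB-mut replicate 1, Actin KO replicate 1 and Actin KO replicate 3), USP34 in 5 of 6 (all but that without ACTB-mut replicate 2) and ALDH1A3 in 6 of 6. ACBD3 was called in ACTB-mut without Actin KO replicate 3 or ACTB-mut replicate 3. DESeq2 called 7 of 7 in ACTB-WT, beside 2.58% of the 13869 genes to which it gave an adjusted p. In ACTB-mut it called 6 of 7, beside 4.59% of 7959 such genes, and gave USP34 no adjusted p. Limma-voom called 5 of 7 in each, beside 0.764% and 1.4% of all genes. Genes with the same direction in both add-backs were also ordered by the larger of their 2 edgeR adjusted p-values. In that order the nearest gene inside the threshold was BMP4 (0.0486) and the nearest outside was GET4 (0.0501). In all, 31 genes were called in the same direction in both add-backs, 0.223% of those tested, and 6 of the 7 were among them. ACBD3 was not. The libraries of all 7 did not overlap with those of Actin KO in either add-back. Of all genes, 7.64% were higher without overlap and 9.08% lower without overlap in ACTB-WT, and 9.31% and 9.16% were so in ACTB-mut. The comparisons share their Actin KO libraries, and their changes are set side by side without a measure of agreement.

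MDK (ENSG00000110492, GRCh38 chromosome 11, 46380756 to 46383837, plus strand), the heparin-binding growth factor, had 646, 607 and 564 CPM in ACTB-WT and 562, 542 and 595 CPM in ACTB-mut, against 324, 297 and 373 CPM in Actin KO. Every add-back library lay above every Actin KO library, and the add-backs overlapped each other. The log2 difference from Actin KO was 0.87 (SE 0.115) in ACTB-WT and 0.77 (SE 0.114) in ACTB-mut, or 1.83-fold and 1.71-fold. In bulk RNA, a smaller or larger share of cells that express a gene and a change in RNA per cell cannot be told apart.

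CFD (ENSG00000197766, chromosome 19, 859643 to 863630, plus strand), the serine protease that cleaves complement factor B, followed the same pattern with little spread. It had 314, 294 and 340.0 CPM in ACTB-WT and 317, 318 and 307 CPM in ACTB-mut, against 168, 149 and 177 CPM in Actin KO. The add-backs lay close together, with a coefficient of variation of 7.34% in ACTB-WT and 1.94% in ACTB-mut. The log2 difference from Actin KO was 0.94 (SE 0.119) in ACTB-WT and 0.93 (SE 0.119) in ACTB-mut. CFD is best known as a product of fat cells, whose markers PLIN1, FABP4 and CIDEC were at 0 in every group. None of the 5 adipocyte markers reached a mean of 1 CPM in any group, and their sum was at most 1.57 CPM in an ACTB-WT library, 0.0875 CPM in ACTB-mut and 0.123 CPM in Actin KO.

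ODC1 (ENSG00000115758, chromosome 2, 10439968 to 10448504, minus strand), the rate-limiting enzyme of polyamine synthesis, had 457, 527 and 460 CPM in ACTB-WT and 505, 465 and 382 CPM in ACTB-mut, against 235, 300.0 and 254 CPM in Actin KO. All add-back libraries were above those of Actin KO, the narrowest gap being that between ACTB-mut replicate 3 and Actin KO replicate 2. The log2 difference was 0.87 (SE 0.135) in ACTB-WT and 0.78 (SE 0.134) in ACTB-mut.

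USP34 (ENSG00000115464, chromosome 2, 61187463 to 61470769, minus strand) was nearly without reads in the Actin KO libraries. It had 15, 48 and 78 counts in ACTB-WT and 88, 26 and 44 counts in ACTB-mut, against 1, 0 and 2 counts in Actin KO, which is 2.98, 6.45 and 13.6 CPM, 7.70, 2.60 and 5.58 CPM, and 0.133, 0 and 0.228 CPM. Add-back libraries ranged widely within their groups, with a coefficient of variation of 70.5% in ACTB-WT and 48.4% in ACTB-mut, yet none came near an Actin KO library. Summed over the libraries of a group and scaled by their depth, the ratio to Actin KO was 63.1 for ACTB-WT (95% counting interval 21.2 to 310) and 43.9 for ACTB-mut (14.7 to 215). These intervals cover counting error only. The USP34 transcript is very long, 11357 bases in its longest annotated form, longer than 97.8% of tested genes, and 5 other annotated genes overlap its span. AHSA2P, on the opposite strand, had at most 3.19 CPM in any library of the ACTB table and did not follow USP34. It had 0.795, 1.48 and 0 CPM in ACTB-WT and 1.14, 1.80 and 0.254 CPM in ACTB-mut, against 1.59, 3.19 and 0 CPM in Actin KO.

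ACBD3 (ENSG00000182827, chromosome 1, 226144679 to 226186730, minus strand), which recruits the lipid kinase PI4KB to the Golgi, was the other low member. It had 15.7, 8.46 and 11.1 CPM in ACTB-WT and 17.0, 12.0 and 4.44 CPM in ACTB-mut, against 0.133, 0.614 and 2.28 CPM in Actin KO. ACTB-mut replicate 3 and Actin KO replicate 3 came closest to each other. From 206 counts in ACTB-WT, 349 in ACTB-mut and 26 in Actin KO, the depth-scaled ratio was 10.6 (7.05 to 16.7) for ACTB-WT and 11.2 (7.51 to 17.4) for ACTB-mut. The antisense gene ACBD3-AS1 had no count in any library. The strand setting of the counting was not given in the sources used here, so reads of overlapping genes cannot be told apart.

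VGF (ENSG00000128564, chromosome 7, 101162509 to 101165593, minus strand) ranked first of the 31 genes called alike, by the larger of its 2 adjusted p-values. It had 84.9, 66.0 and 66.7 CPM in ACTB-WT and 146, 97.0 and 113 CPM in ACTB-mut, against 453, 423 and 464 CPM in Actin KO. The 3 groups were apart from each other, with Actin KO highest and ACTB-WT lowest. The log2 difference from Actin KO was -2.62 (SE 0.167) in ACTB-WT and -1.91 (SE 0.162) in ACTB-mut, so VGF was 6.17-fold and 3.76-fold lower. VGF is stored in the secretory granules of neuroendocrine cells. Of 5 markers of those cells, CHGA, INSM1 and SCGN were at 0 in every group, and SYP and SCG2 were not. The markers with a mean of at least 1 CPM numbered 2 in Actin KO and 1 in each add-back. The 5 neuroendocrine markers summed to 1.48 to 8.55 CPM in ACTB-WT and 6.09 to 8.05 CPM in ACTB-mut, against 3.88 to 6.90 CPM in Actin KO, which overlap.

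ALDH1A3 (ENSG00000184254, chromosome 15, 100877714 to 100916626, plus strand), which oxidises retinal to retinoic acid, was also highest in Actin KO. It had 37.8, 32.2 and 39.9 CPM in ACTB-WT and 81.2, 83.3 and 75.6 CPM in ACTB-mut, against 148, 150.4 and 132 CPM in Actin KO. The ACTB-mut libraries lay between the other groups and overlapped neither. The log2 difference from Actin KO was -1.97 (SE 0.165) in ACTB-WT and -0.84 (SE 0.158) in ACTB-mut, or 3.92-fold and 1.79-fold lower. Its relatives ALDH1A1 and ALDH1A2, which make retinoic acid in other tissues, had no count in the ACTB table. The antisense gene AC015712.2 within ALDH1A3 had 0 to 4.84 CPM in the ACTB table.

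**Figure D1:**
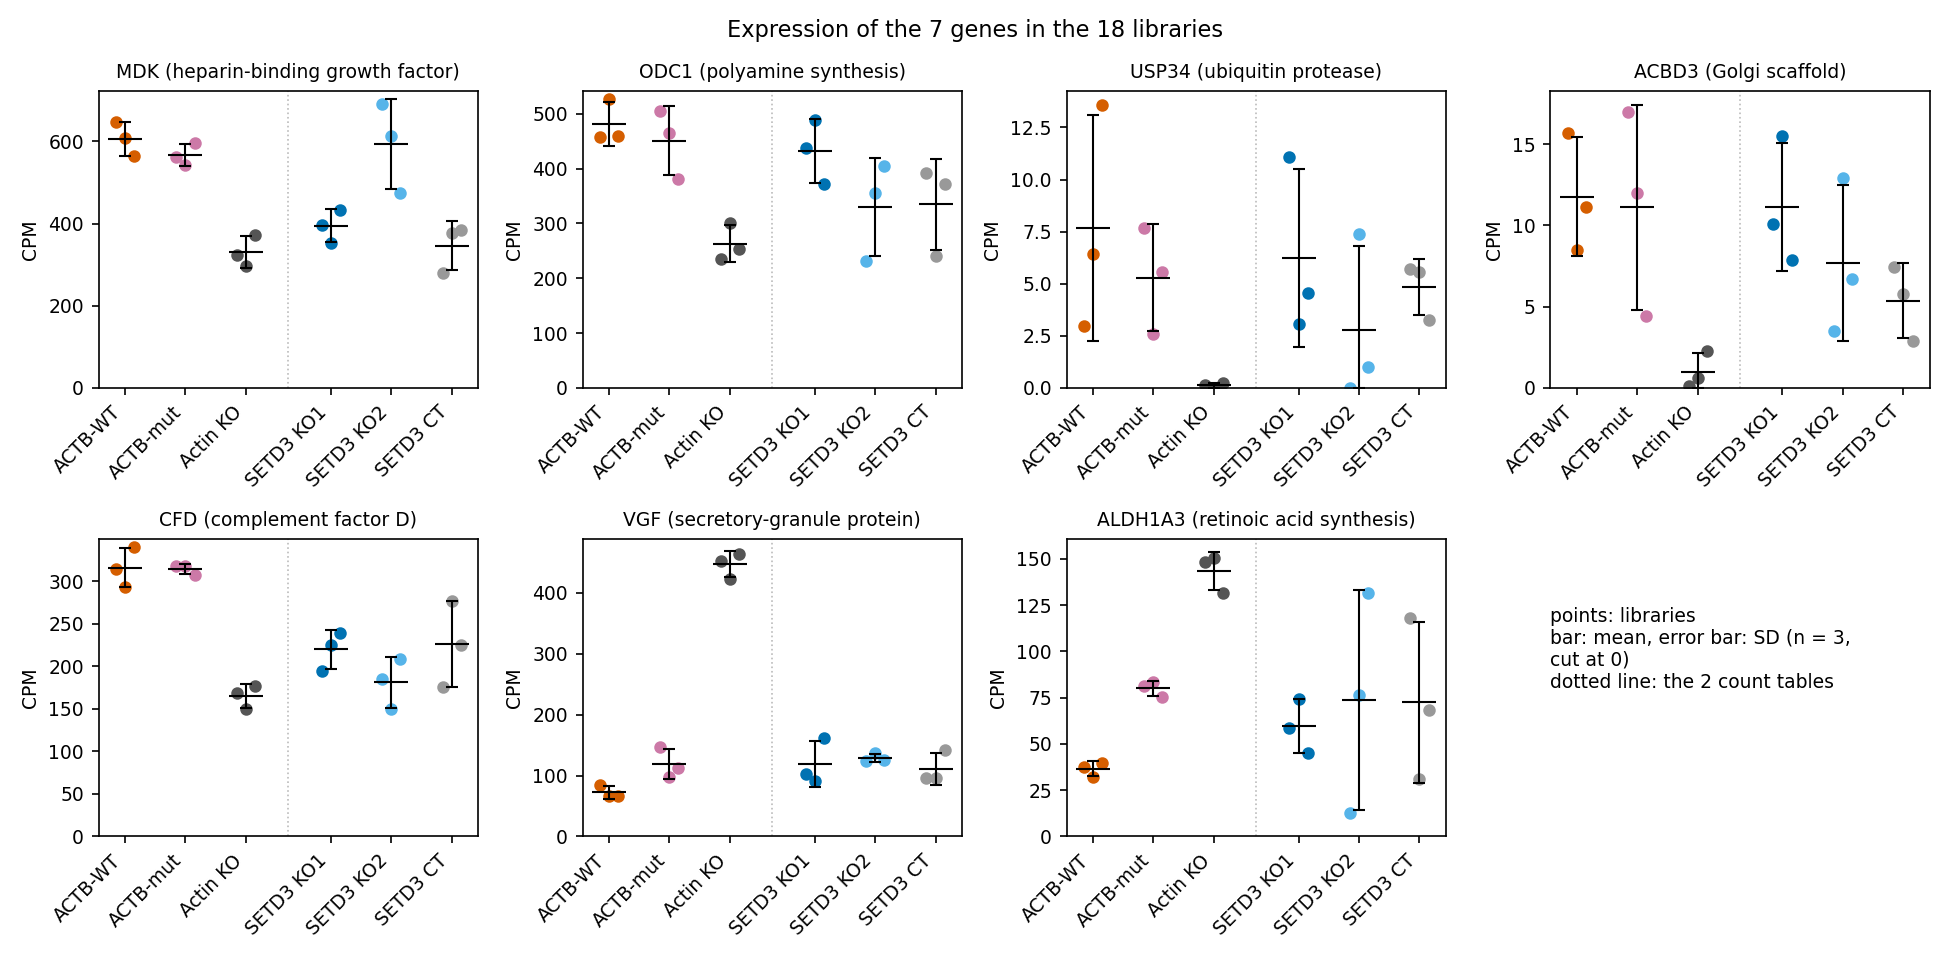
RNA level of each gene (vertical axis, CPM on a linear scale) in the 18 libraries, with a point for each library, a bar for the mean and an error bar for the SD (n = 3). The SETD3 groups stand right of the dotted line, and for VGF the Actin KO libraries (423 to 464 CPM) stand above all others.

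The fit over all genes also set the add-backs against each other, with wild-type actin as the comparator. This contrast was not used to choose the genes, but its libraries were, so it is not independent of the choice. VGF and ALDH1A3 were higher in ACTB-mut than in ACTB-WT, and the other 5 genes were not called. In this comparison 1.24% of all genes were called in either direction and 0.634% were called higher, beside which stand 2 of the 7. The same 2 had an unadjusted p under 0.05, beside 12% of all genes, and were called by DESeq2, beside 3.22%, while limma-voom called ALDH1A3 alone, beside 1.19%. The libraries of the same 2 genes did not overlap, and 9.93% of all genes were higher without overlap.

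ALDH1A3 was 2.19-fold higher in ACTB-mut than in ACTB-WT, a log2 difference of 1.13 (SE 0.162, 95% interval 0.78 to 1.47, adjusted p = 0.00291 by edgeR). It remained called when any library of the groups was left out, with adjusted p-values of 0.00779 to 0.0232. VGF was 1.64-fold higher, a log2 difference of 0.71 (SE 0.16, interval 0.37 to 1.05, adjusted p = 0.0424). Its call was lost without ACTB-mut replicate 1 (log2 0.53, adjusted p = 0.195), ACTB-mut replicate 3 (0.0912), ACTB-WT replicate 2 (0.172) or ACTB-WT replicate 3 (0.136), and over the other alternatives the adjusted p ran from 0.00297 to 0.135. ACTB-mut replicate 1 had the highest VGF of its group, 146 CPM.

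MDK, CFD and ODC1 differed little between the add-backs. Their log2 differences of ACTB-mut from ACTB-WT were -0.10 (95% interval -0.34 to 0.14) for MDK, -0.01 (-0.26 to 0.24) for CFD and -0.09 (-0.38 to 0.19) for ODC1, with adjusted p-values of 0.848, 0.994 and 0.888. As fold changes these intervals span 0.79 to 1.10, 0.836 to 1.18 and 0.769 to 1.14. For USP34 and ACBD3 the intervals were wide, from -2.23 to 1.16 and from -1.52 to 1.37 around log2 differences of -0.54 and -0.07. As fold changes these span 0.213 to 2.24 for USP34 and 0.348 to 2.59 for ACBD3.

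**Figure D2:**
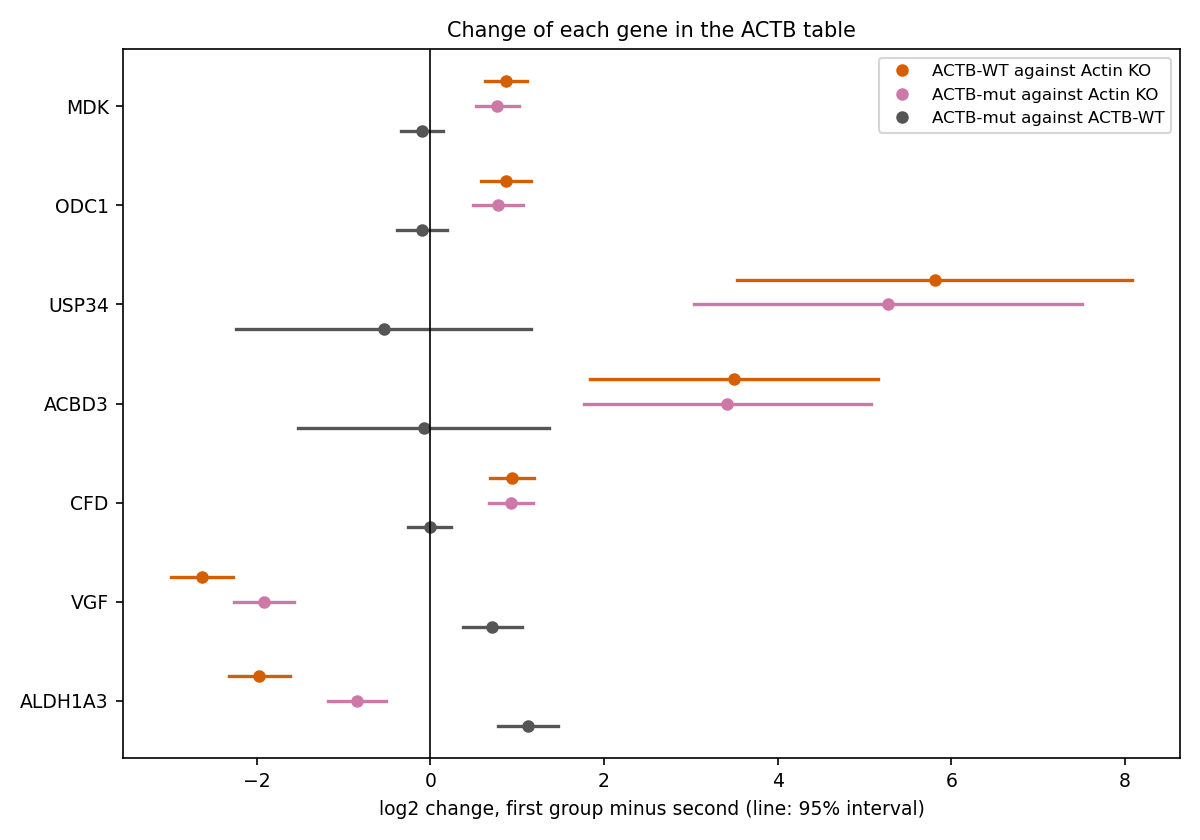
Log2 difference of each gene (horizontal axis, first group minus second) in the 3 comparisons of the ACTB table, with lines for the 95% interval. In the ACTB-mut against ACTB-WT comparison, the points of ALDH1A3 (1.13) and VGF (0.71) are right of 0, and the intervals of USP34 and ACBD3 are the widest.

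The SETD3 table gave values in libraries that played no part in the choice. None of the 7 genes was called in SETD3 KO1 against SETD3 CT, and none had an unadjusted p under 0.05 or was called by DESeq2 or limma-voom. In this comparison 0.0144% of all genes were called by edgeR, 2 in number, 5.75% had an unadjusted p under 0.05, and DESeq2 called 0.471% and limma-voom 0.0217%. In SETD3 KO2 against SETD3 CT, again 0 of 7 were called by edgeR, beside 0.0578% of all genes. MDK alone had an unadjusted p under 0.05 there, beside 4.95% of all genes. It was the 1 gene of the 7 that DESeq2 called, beside 0.665% of the 13542 genes to which it gave an adjusted p. Limma-voom called none of the 7, beside 0.0578% of all genes. In SETD3 KO2 against SETD3 KO1, 0 of 7 were called by any of the 3 tools, beside 0.0289% of all genes by edgeR, 0.405% by DESeq2 and 0.065% by limma-voom. MDK again had an unadjusted p under 0.05, as had 4.84% of all genes.

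MDK had 691, 612 and 475 CPM in SETD3 KO2 and 396, 353 and 434 CPM in SETD3 KO1, against 278, 377 and 384 CPM in SETD3 CT. All 3 KO2 libraries were above all libraries of the other 2 groups, while KO1 and CT overlapped. Of all genes, 4.97% were higher without overlap in KO2 than in CT, and 6.16% in KO2 than in KO1. The log2 difference of KO2 from CT was 0.77 (SE 0.197, adjusted p = 0.398 by edgeR), which is 1.71-fold with a 95% interval of 1.27 to 2.30. MDK crossed the threshold with DESeq2 (adjusted p = 0.0484) and with offsets for GC content (0.0422). Without any 1 library, edgeR gave log2 differences of 0.641 to 0.912, with adjusted p-values of 0.379 to 0.891. KO1 differed from CT by 0.19 (interval -0.24 to 0.61, adjusted p = 0.998), and KO2 from KO1 by 0.59 (0.16 to 1.01, adjusted p = 0.972). Within KO2, MDK was highest in replicate 1, the shallowest library of the table, and lowest in replicate 3, the deepest, and the part of depth was not tested.

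ACBD3 had 3.50, 12.9 and 6.70 CPM in SETD3 KO2 and 10.1, 15.5 and 7.89 CPM in SETD3 KO1, against 7.47, 5.76 and 2.90 CPM in SETD3 CT. Each KO1 library was above each CT library, as were the libraries of 6.47% of all genes in that comparison, and KO2 overlapped both. The log2 difference from CT was 1.05 in KO1 (interval -0.37 to 2.47, adjusted p = 0.973) and 0.53 in KO2 (-0.88 to 1.95, adjusted p = 1), each with edgeR.

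USP34 had 0, 7.40 and 0.993 CPM in SETD3 KO2 and 11.1, 3.05 and 4.55 CPM in SETD3 KO1, against 5.72, 5.54 and 3.28 CPM in SETD3 CT. The KO2 libraries spread from no count at all to above the CT range. KO2 replicate 1, the library without a USP34 count, was also the shallowest. The log2 difference from CT was -0.74 in KO2 (interval -3.18 to 1.70) and 0.36 in KO1 (-2.07 to 2.79).

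The 2 genes that were lower in both add-backs than in Actin KO did not separate the SETD3 groups. VGF had 124, 137 and 125 CPM in SETD3 KO2 and 103, 90.9 and 162 CPM in SETD3 KO1, against 95.5, 95.3 and 142 CPM in SETD3 CT. Its log2 difference from CT was 0.22 in KO2 (interval -0.34 to 0.77) and 0.10 in KO1 (-0.46 to 0.65), so a change of the size seen between the add-backs and Actin KO lay outside both intervals. ALDH1A3 had 12.7, 76.4 and 132 CPM in SETD3 KO2 and 58.7, 74.5 and 45.2 CPM in SETD3 KO1, against 118, 30.8 and 68.6 CPM in SETD3 CT. Within KO2 its coefficient of variation was 80.9%, and the log2 difference from CT, 0.03 in KO2 and -0.29 in KO1, had intervals of -1.30 to 1.37 and -1.63 to 1.05.

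ODC1 had 231, 355 and 404 CPM in SETD3 KO2 and 437, 488 and 371 CPM in SETD3 KO1, against 392, 240.2 and 373 CPM in SETD3 CT. Its log2 difference from CT was -0.02 in KO2 (interval -0.55 to 0.51) and 0.37 in KO1 (-0.16 to 0.90). The lowest ODC1 and the lowest ALDH1A3 values were in the same 2 libraries, KO2 replicate 1 and CT replicate 2, which were also the 2 with the fewest counts (3389586 and 4898827). The part of depth in these values was not tested. CFD had 185, 149 and 209 CPM in SETD3 KO2 and 195, 225 and 240 CPM in SETD3 KO1, against 176, 277 and 225 CPM in SETD3 CT, and its log2 difference was -0.32 in KO2 (-0.78 to 0.15) and -0.04 in KO1 (-0.50 to 0.43).

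**Figure D3:**
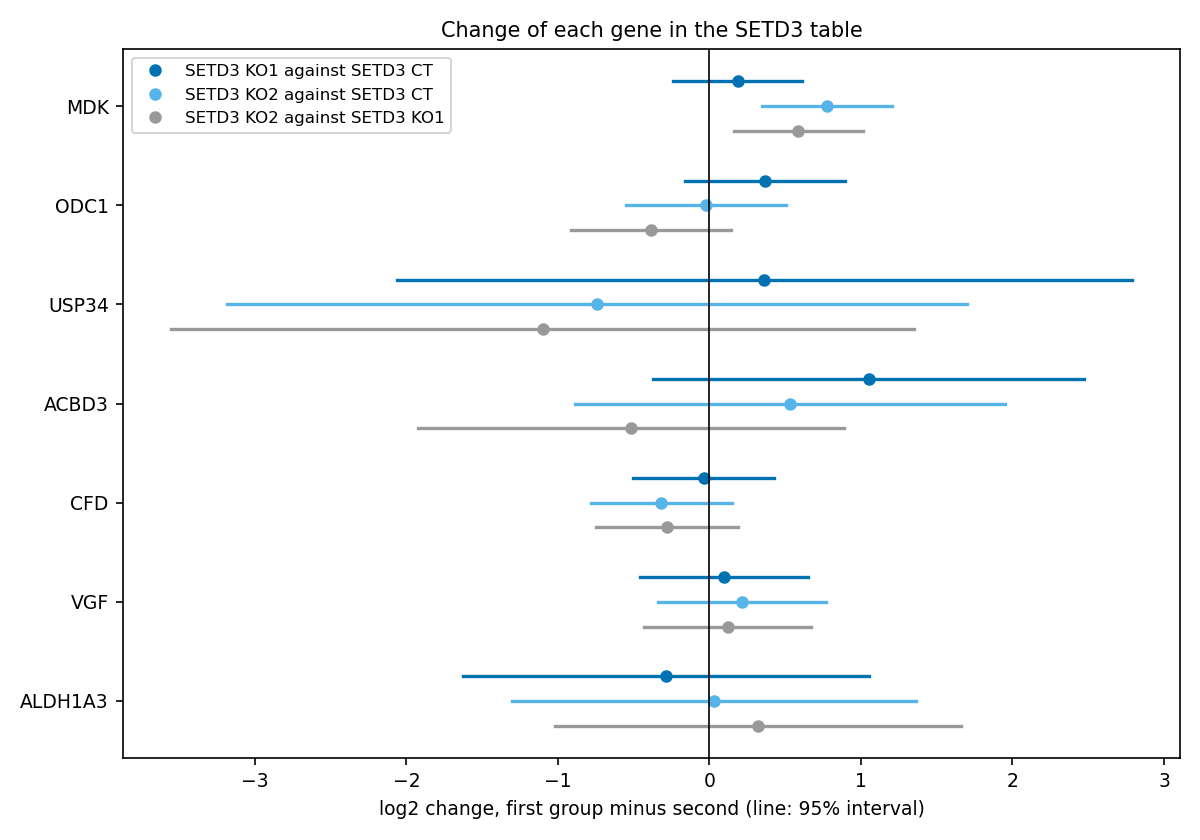
Log2 difference of each gene (horizontal axis, first group minus second) in the 3 comparisons of the SETD3 table, with lines for the 95% interval. MDK in SETD3 KO2 against SETD3 CT (0.77) and against SETD3 KO1 (0.59) has the 2 intervals that leave out 0, before adjustment over all genes.

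The median log2 difference of the 7 genes was 0.87 in ACTB-WT and 0.78 in ACTB-mut against Actin KO, beside -0.01 and 0.03 over all tested genes, which the choice of genes fixes. It was -0.07 between ACTB-mut and ACTB-WT, beside 0.03 over all genes. In the SETD3 table it was 0.19 for KO1 and 0.03 for KO2 against CT, beside -0.02 and -0.01 over all genes.

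Levels were also set across the tables after all 18 libraries had been scaled together by TMM (trimmed mean of M-values). The tables may differ in more than genotype, so these values carry no test. For VGF, the Actin KO libraries (431 to 469 CPM) lay above all 9 libraries of the SETD3 table (89.6 to 160 CPM). ACTB-mut (97.0 to 148 CPM) lay within that range, and ACTB-WT (67.2 to 86.4 CPM) below it. ALDH1A3 in Actin KO (133 to 153 CPM) was above the SETD3 table (12.7 to 130 CPM), and both add-backs were within it.

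ACBD3 in Actin KO (0.135 to 2.31 CPM) was below all 9 libraries of the SETD3 table (2.86 to 15.3 CPM), and 2 of 3 libraries of each add-back were within. CFD gave another order. Here the Actin KO libraries (152 to 178 CPM) were within the range of the SETD3 table (146 to 270 CPM), and both ACTB-WT (299 to 343 CPM) and ACTB-mut (311 to 320 CPM) were above it. For MDK and ODC1, the Actin KO libraries were within the range of the SETD3 table. For USP34 they were too (0 to 0.231 CPM), but the low end of that range is SETD3 KO2 replicate 1, which had no count. The next lowest library of the SETD3 table had 0.979 CPM, and SETD3 CT had 3.24 to 5.61 CPM, all above Actin KO. For MDK the add-backs were too (568 to 658 CPM in ACTB-WT and 542 to 603 CPM in ACTB-mut, against 273 to 687 CPM), with the high end of that range set by SETD3 KO2.

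Genes that work with each member were read from lists chosen with earlier results of these data known. ODC1 makes putrescine, which SRM and SMS extend to spermidine and spermine, AMD1 supplies the aminopropyl groups, OAZ1 and OAZ2 are antizymes that send ODC1 to degradation, and SAT1 starts polyamine breakdown. Of 22 such genes, 20 were tested and 0 were called by edgeR in any of the 6 comparisons. At an unadjusted p under 0.05 there were 3 of the 20 in ACTB-WT and 5 in ACTB-mut against Actin KO, beside 11.2% and 11.5% of all genes. In ACTB-mut DESeq2 called OAZ1 and SAT1 and limma-voom called OAZ1, and neither tool called any of the 20 in ACTB-WT. OAZ1 had 2008, 2017 and 1833 CPM in ACTB-WT and 2106, 1978 and 2144 CPM in ACTB-mut, against 1547, 1628 and 1660.0 CPM in Actin KO. Its log2 difference was 0.28 in ACTB-WT (adjusted p = 0.178) and 0.36 in ACTB-mut (adjusted p = 0.0605, both by edgeR). The median over the 20 genes was 0.19 in ACTB-WT and 0.10 in ACTB-mut, beside -0.01 and 0.03 over all genes.

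ALDH1A3 acts after RDH10, which makes retinal from retinol, and DHRS3 runs that step in reverse. CRABP2 carries retinoic acid to its receptors. Of 24 retinoid genes, 13 were tested in the ACTB table, and DHRS3 was the 1 gene called, lower in both add-backs as ALDH1A3 was. DHRS3 had 119, 119 and 97.6 CPM in ACTB-WT and 180.0, 126 and 162 CPM in ACTB-mut, against 227, 288 and 248.8 CPM in Actin KO. All add-back libraries were below all Actin KO libraries. The log2 difference was -1.19 in ACTB-WT (SE 0.16, adjusted p = 8.88e-04 by edgeR) and -0.71 in ACTB-mut (SE 0.158, adjusted p = 0.0479), and the second call was lost whichever library of the groups was left out (adjusted p 0.0676 to 0.192). DHRS3 is 1 of the 31 genes called alike, beside 6 of the 7 members. CRABP2, the most abundant of the list, had 341, 327 and 314 CPM in ACTB-WT and 324, 328 and 331 CPM in ACTB-mut, against 288, 279 and 308 CPM in Actin KO, and was not called (log2 0.17 in each add-back, adjusted p = 0.639 and 0.632).

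Midkine binds integrins, syndecans, nucleolin and the receptors ALK and PTPRZ1. Of 15 genes of this axis, 9 were tested, and ITGA6, an integrin chain, was the 1 called. ITGA6 had no count in any ACTB-WT library and 3.15, 5.79 and 10.4 CPM in ACTB-mut, against 5.04, 12.9 and 0.799 CPM in Actin KO. It was lower in ACTB-WT than in Actin KO (adjusted p = 0.0231) and higher in ACTB-mut than in ACTB-WT (adjusted p = 0.0219), and ACTB-mut did not differ from Actin KO beyond the spread (adjusted p = 0.994), all by edgeR. Both calls were lost with limma-voom (adjusted p = 0.329 and 0.204), and each held in 1 of 6 fits with a library removed, where the adjusted p was 0.0124 to 0.0938 for ACTB-WT against Actin KO and 0.0382 to 0.0842 for ACTB-mut against ACTB-WT. PTN, the nearest relative of MDK, had no count in any library.

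Among 17 complement genes, of which 6 were tested, none was called against Actin KO in either add-back by edgeR. At an unadjusted p under 0.05 there was 1 in ACTB-WT, CD59, which DESeq2 also called, and 0 in ACTB-mut. CD59, a surface protein that blocks the terminal complement complex, was called between the add-backs, with 34.0, 27.8 and 30.1 CPM in ACTB-mut, against 7.56, 9.81 and 11.3 CPM in ACTB-WT. Its log2 difference was 1.67 (SE 0.304, adjusted p = 0.0125 by edgeR), and the call was lost without ACTB-mut replicate 1 (0.0671), ACTB-WT replicate 1 (0.0572) or ACTB-WT replicate 2 (0.0558). In Actin KO CD59 stood at 21.0, 27.99 and 21.8 CPM, so it did not take the course of CFD, which was alike in both add-backs.

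From the other lists, with 2 granin and prohormone-processing genes, 10 genes of axin turnover and large ubiquitin proteases and 13 ACBD and Golgi genes tested, edgeR called 0 in every comparison. At an unadjusted p under 0.05 the granin list had 0 in both add-backs, the axin list 0 in ACTB-WT with 2 in ACTB-mut, while the Golgi list had 1 in ACTB-WT with 2 in ACTB-mut. In ACTB-mut against ACTB-WT the axin and Golgi lists had 2 each. DESeq2 called ACBD6 in ACTB-WT and GSK3A in ACTB-mut against Actin KO, and TSPO and GSK3A in ACTB-mut against ACTB-WT. In the SETD3 table, 73 genes of the 7 lists were tested and edgeR called 0 in KO1 against CT, in KO2 against CT and in KO2 against KO1, with 6, 7 and 5 at an unadjusted p under 0.05, beside 5.75%, 4.95% and 4.84% of all genes. DESeq2 called 0, 1 and 0 of them, the 1 being ATP13A2, and limma-voom called 0.

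**Figure D4:**
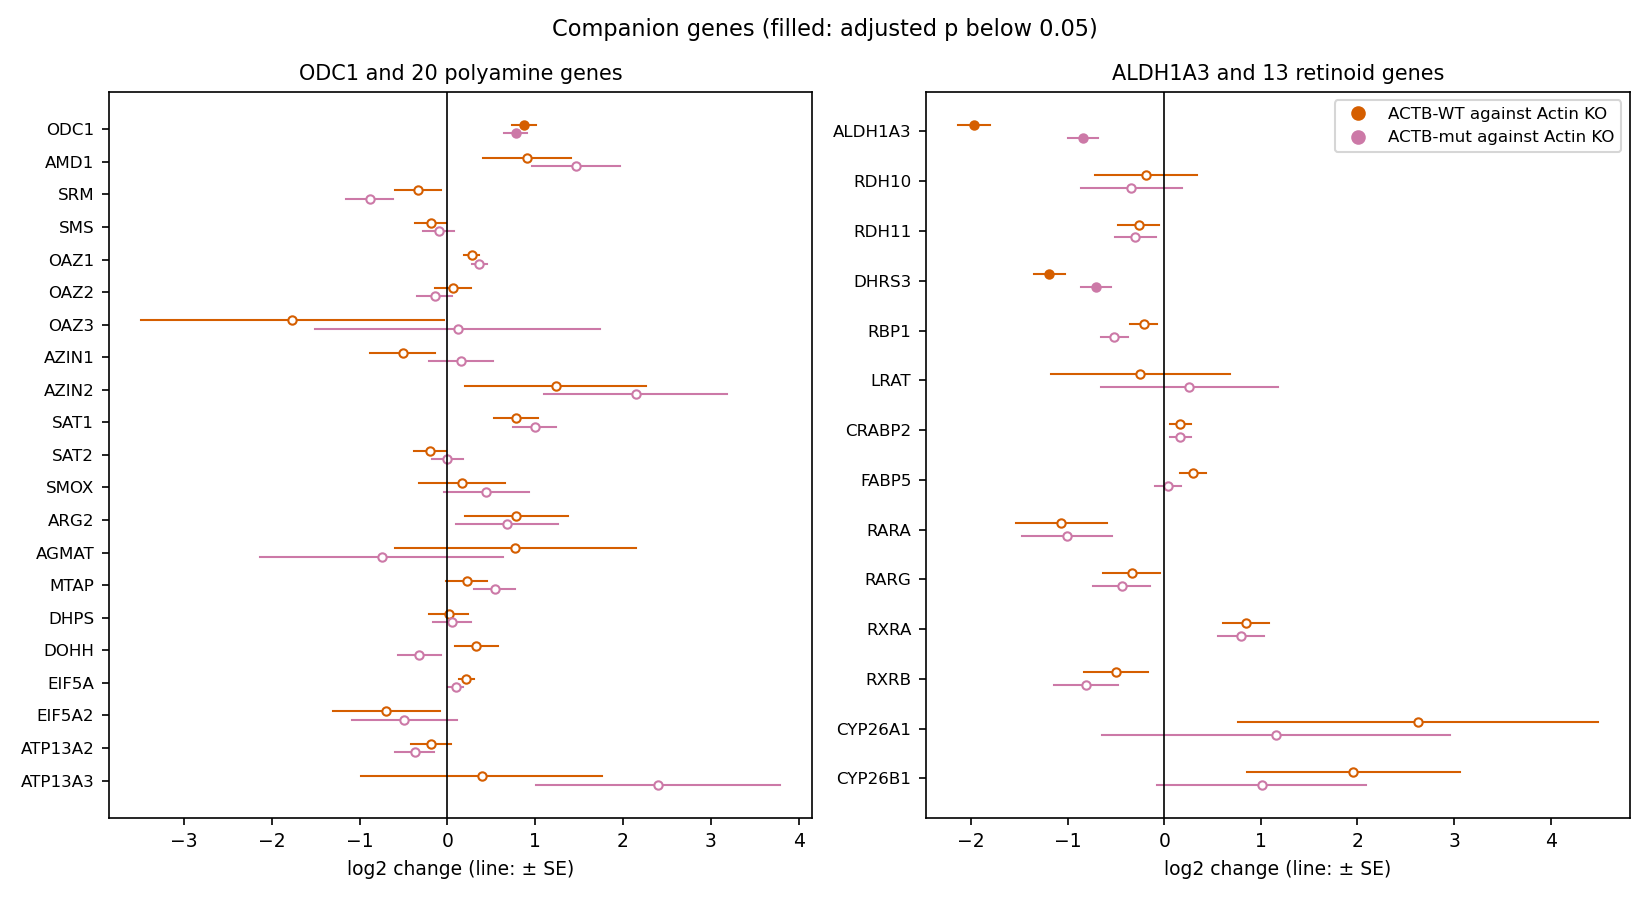
Log2 difference from Actin KO (horizontal axis, line for the SE) of ODC1 with 20 polyamine genes and of ALDH1A3 with 13 retinoid genes, in ACTB-WT and ACTB-mut. Filled points are genes with an adjusted p below 0.05, which beside ODC1 and ALDH1A3 are the points of DHRS3 alone.

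Of the direct neighbours on the chromosome that were tested, AP1S1 and HPCAL1 were called in ACTB-WT against Actin KO, beside 1.12% of all genes. H3-3A was called in ACTB-mut against Actin KO, beside 0.922% of all genes. AP1S1, a clathrin adaptor subunit gene 913 bases from VGF on the other strand, was called lower in ACTB-WT, as VGF was. AP1S1 had 57.5, 75.9 and 84.2 CPM in ACTB-WT and 95.5, 90.5 and 92.3 CPM in ACTB-mut, against 154, 119 and 129.98 CPM in Actin KO. Its log2 difference was -0.89 in ACTB-WT (SE 0.173, adjusted p = 0.0185) and -0.53 in ACTB-mut (adjusted p = 0.199), and the first call was lost without Actin KO replicate 1 (0.116), Actin KO replicate 3 (0.0535), ACTB-WT replicate 1 (0.0842) or ACTB-WT replicate 2 (0.0597).

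HPCAL1, which lies 12351 bases from ODC1, went the other way from ODC1 in ACTB-WT. Its log2 difference was -0.94 in ACTB-WT (adjusted p = 0.00391) and -0.36 in ACTB-mut (adjusted p = 0.346). The call of HPCAL1 in ACTB-WT held in 6 of 6 edgeR fits with a library left out (adjusted p 0.00589 to 0.0251). H3-3A, a histone gene 72678 bases from ACBD3, was higher in ACTB-mut (0.46, adjusted p = 0.0344) and not called in ACTB-WT (0.38, adjusted p = 0.0934), and the call in ACTB-mut was lost whichever library was left out (adjusted p 0.0625 to 0.153). LRRK1, which lies 2589 bases from ALDH1A3, had larger differences at lower levels and was not called. It had 8.35, 1.61 and 1.92 CPM in ACTB-WT and 0.70, 2.30 and 5.71 CPM in ACTB-mut, against 15.9, 14.9 and 6.50 CPM in Actin KO. Its log2 difference was -1.66 in ACTB-WT (adjusted p = 0.458) and -2.11 in ACTB-mut (adjusted p = 0.306), the direction of ALDH1A3. DGKZ, which ends 202 bases before MDK, had log2 differences of -0.06 and -0.03 and was not called.

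For each member, the 3 genes with the most similar course over the 9 libraries of the ACTB table were taken from those with a mean of at least 5 CPM, by Pearson's r of log2 CPM. The 9 libraries fall into 3 groups, so a high r says mostly that a gene separates Actin KO from the add-backs, as the members were chosen to do. VGF was most like IRF9 (r = 0.987), FOSL1 (0.984) and IFI6 (0.961), and ALDH1A3 most like LGALS1 (0.986), CAV1 (0.982) and CBR3 (0.971). Over the 9 SETD3 libraries the same pairs had an r of -0.27 for IRF9, 0.17 for FOSL1 and 0.22 for IFI6 with VGF, and of -0.84 for LGALS1, 0.43 for CAV1 and 0.12 for CBR3 with ALDH1A3.

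MDK and CFD were among each other's 3 most similar genes (r = 0.966), with HOOK1 and ADAP1 for MDK and H3-3A and H4C3 for CFD. In the SETD3 table MDK and CFD had an r of -0.38. ODC1 was most like MRM2 (0.965), RPF1 (0.957) and PDLIM5 (0.95), USP34 most like H4C3, CFD and MPC1, and ACBD3 most like TAF1D (0.961), SNCG (0.951) and PDLIM5 (0.941). Over the SETD3 libraries the r with ODC1 was 0.79 for RPF1, 0.03 for PDLIM5 and -0.065 for MRM2. With ACBD3 it was 0.66 for TAF1D, -0.01 for SNCG and -0.42 for PDLIM5. That with MDK was 0.63 for ADAP1 and -0.55 for HOOK1, and that with CFD was 0.57 for H4C3 and -0.29 for H3-3A. USP34 had an r of 0.43 with H4C3, 0.36 with MPC1 and 0.03 with CFD. The points share depth and the scaling of their libraries.

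The members differed widely in base composition. The GC content of the longest annotated transcript was 70.6% for VGF, 65.4% for CFD and 62.0% for MDK. That placed them at the 99.8th, 96.7th and 90.3rd percentile of tested genes. It was 40.4% for USP34 and 41.8% for ACBD3, at the 14.8th and 20.6th. ODC1 (51.2%) and ALDH1A3 (51.3%) were near the median of 49.5%. Genes of high GC content were among both the higher and the lower members. With offsets for GC content, the log2 difference of VGF from Actin KO was -2.59 in ACTB-WT and -1.69 in ACTB-mut. That of MDK was 0.91 and 0.96, so both genes kept their direction.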

How the data were processed

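The authors deposited expected counts from RSEM, without normalisation, in 2 tables of 60683 gene rows. Per the submitters' processing notes, reads were handled with Trim Galore 0.4.5, cutadapt 1.15, RSEM 1.2.28 and Bowtie2 on GRCh38. For the annotation release and the strand setting, these notes and the labels give nothing that could be used here. Of the values, 83.4% and 83.8% were whole within 0.005. Counts were rounded, and GENCODE release 29 gave coordinates and GC content.

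Each table was fitted with its 3 groups in edgeR 4.0.16 (R 4.3.3) after filterByExpr and TMM scaling, which left 13882 and 13846 genes. Comparisons used its robust quasi-likelihood test, two-sided. Adjustment was by Benjamini-Hochberg over every gene of the fit, and values below 0.05 are called. Shares for DESeq2 are over the genes to which it gave an adjusted p. SE is the absolute log2 difference over the square root of F, and 95% intervals come from the same fit. Levels are CPM scaled by TMM within a table. The fit was tested on simulated data. Counting intervals for USP34 and ACBD3 are exact and cover counting error only.

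The members and lists were chosen with earlier results of these data known. The genes named are the members, called genes of the lists and up to 4 abundant ones of each, direct neighbours, and the 3 genes most like each member. Same-numbered replicates of the ACTB libraries deviated together little (r from -0.101 to 0.0946). For those of SETD3, r had both signs, from -0.4 (CT and KO2, replicate 1) to 0.197 (KO1 and KO2, replicate 2), and its source was not tested. No pair of replicates agreed within sampling noise. Alternatives were DESeq2 size factors, no low-count filter, DESeq2 1.42.0, limma-voom (limma 3.58.1), the compared groups alone, a replicate block, GC offsets and leaving out each library, and those for genes outside the 7 were added after seeing the data.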

Additional observations from a re-analysis of the deposited data

Results flagged for a closer look

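The effects of the 2 actin constructs, each taken against Actin KO, differed from each other for 2 of the 7 genes by the test of the difference itself, which is ACTB-mut against ACTB-WT, where 1.24% of all genes were called and 9.93% were higher without overlap. For ALDH1A3 that log2 difference was 1.13 (adjusted p = 0.00291 by edgeR), with all 3 ACTB-mut libraries above all 3 ACTB-WT libraries. For VGF it was 0.71 (adjusted p = 0.0424), again higher in 3 of 3 ACTB-mut libraries than in any ACTB-WT library, and the call was lost in 4 of 6 fits with a library left out (adjusted p up to 0.195). The same libraries chose both genes, and the cause of either difference was not tested.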

How the results depend on the processing

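Without the low-count filter edgeR called 320 genes in ACTB-WT against Actin KO, 371 in ACTB-mut against Actin KO, 402 in ACTB-mut against ACTB-WT, 58 in SETD3 KO1 against CT, 68 in KO2 against CT and 58 in KO2 against KO1, and DESeq2 called 358, 365, 446, 65, 90 and 56. Limma-voom called 195 in ACTB-mut against Actin KO and 9 in KO2 against KO1. With only the compared groups there were 104 in ACTB-mut against ACTB-WT and 1 each in KO1 and KO2 against CT. A replicate block gave 89, 85 and 83 in the ACTB table, 0 for KO1 and 1 for KO2 against CT. Whether the replicate numbers pair the libraries was not given in the sources used here. GC offsets gave 10, 29 and 14 in the SETD3 table. Of the 7 genes, 1 (ALDH1A3) was called between ACTB-mut and ACTB-WT with limma-voom, with only the 2 groups and with the replicate block, where VGF had an adjusted p of 0.0885, 0.135 and 0.0538, and 1 (MDK) in KO2 against CT with DESeq2 and with GC offsets. ACBD3 was called in ACTB-mut against Actin KO without the filter and with DESeq2 (adjusted p = 2.36e-04 and 3.87e-04). In ACTB-WT against Actin KO limma-voom lost USP34 and ACBD3 (0.22 and 0.207), and DESeq2 gave no adjusted p for USP34 in ACTB-mut against Actin KO.

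Some differences near 0 changed sign, none of them called. With limma-voom, CFD became 0.001531 in ACTB-mut against ACTB-WT and 0.01789 in KO1 against CT, and ODC1 0.008349 and ALDH1A3 -0.00181 in KO2 against CT. The replicate block gave ALDH1A3 -0.06225 in KO2 against CT. GC offsets gave 0.05095 for MDK and 0.1513 for CFD in ACTB-mut against ACTB-WT and 0.008222 for CFD in KO1 against CT.

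Leaving out 1 library at a time gave 79 to 106 called genes in ACTB-WT against Actin KO (79 without Actin KO replicate 1), 34 to 77 in ACTB-mut against Actin KO (34 without Actin KO replicate 3), 60 to 129 in ACTB-mut against ACTB-WT, 0 to 4 in KO1 against CT, 3 to 7 in KO2 against CT and 3 to 5 in KO2 against KO1. Of the 7 genes, 5 to 7, 3 to 5 and 1 to 2 were called in these ACTB comparisons and 0 in those of the SETD3 lines. Log2 differences that changed sign ran from -0.516 to 0.2956 for ACBD3, -0.05276 to 0.04243 for CFD, -0.1886 to 0.005316 for ODC1 and -0.9147 to 0.1546 for USP34 in ACTB-mut against ACTB-WT. In KO1 against CT they ran from -0.6468 to 0.256 for ALDH1A3, -0.186 to 0.1342 for CFD, -0.3464 to 0.7123 for USP34 and -0.1909 to 0.3184 for VGF. In KO2 against CT they ran from -0.04638 to 0.8672 for ACBD3, -0.6786 to 0.5763 for ALDH1A3 and -0.2107 to 0.1825 for ODC1, and in KO2 against KO1 from -0.3926 to 0.8067 for ALDH1A3 and -0.04633 to 0.4087 for VGF. In all these fits MDK, CFD and VGF kept their direction and call against Actin KO in both add-backs, and ALDH1A3 lost its call in ACTB-mut in all 6 (adjusted p 0.0568 to 0.0778). Calls were also lost for ODC1 in ACTB-mut (3 of 6, up to 0.0699), for USP34 in ACTB-mut (5 of 6, up to 0.102) and ACTB-WT (3 of 6, up to 0.069), and for ACBD3 in ACTB-WT (5 of 6, up to 0.172).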
